A study of Mus musculus with 4 samples.

Results

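The genes described here are 41 genes of the mouse cell cycle, 23 that peak in G2 and mitosis (the G2/M members, such as Mki67, Top2a, Cdk1 and Ube2c) and 18 that peak as DNA is copied (the S members, such as Pcna, Mcm5 and Rrm2). They were taken from a fixed list of names, all 41 were found among the 29161 genes of the count table, and their levels were followed across 290 single cells to see which reporter cells carried transcripts of dividing cells. The cells came from enteroids, mini-guts of intestinal epithelium kept in Matrigel in a medium containing EGF, Noggin and R-spondin-1, which had been made from female CD1 mice with the genotype Neurog3eYFP/+. Living eYFP-positive cells were sorted into plates, 92 per plate with 4 wells left empty. Plate 1 was duodenum at 39 weeks (duodenum replicate 1, 72 cells in the table). Plates 2 and 3 were duodenum at 12 weeks (duodenum replicates 2 and 3, with 83 and 72 cells), and plate 4 was jejunum at 12 weeks (jejunum replicate 1, 63 cells). All groups share the reporter allele, the culture medium and the eYFP gate, no reporter-negative sample was analysed here, and the number of mice behind each plate is not given in the sources used here.

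A dividing cell first copies its DNA in S phase, with the MCM helicase, the clamp Pcna and the enzymes that make nucleotides, and then passes through G2 into mitosis under cyclin A and cyclin B with Cdk1, until the ubiquitin machinery that includes Cdc20 and Ube2c takes the mitotic proteins apart. In the intestine, stem and transit-amplifying cells of the crypt divide, and hormone-producing enteroendocrine cells are regarded as having left the cycle. Neurog3 is the transcription factor that starts the endocrine programme in a short-lived progenitor, and eYFP protein can outlast its transcript, so that the reporter also labels descendants. Chgb encodes chromogranin B, a protein of hormone granules.

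The promoters of cell cycle genes are known for a small set of short DNA elements, and 4 of them are shown because the members' results turn on these genes: Ube2c and Cdk1 for G2/M, Mcm5 and Mcm6 for S phase. Each line gives bases 250 to 21 before the RefSeq transcription start (230 bases, GRCm38.p6), 5′ to 3′ on the strand of the gene. Capitals mark exact matches, on either strand, to TTTGAA (the core of the cell cycle genes homology region, CHR), CCAAT (the NF-Y box) or an E2F motif written as TTTCCCGC, TTTCGCGC, TTTGCCGC or TTTGGCGC.
Ube2c, chr2:164769679-164769908, plus strand: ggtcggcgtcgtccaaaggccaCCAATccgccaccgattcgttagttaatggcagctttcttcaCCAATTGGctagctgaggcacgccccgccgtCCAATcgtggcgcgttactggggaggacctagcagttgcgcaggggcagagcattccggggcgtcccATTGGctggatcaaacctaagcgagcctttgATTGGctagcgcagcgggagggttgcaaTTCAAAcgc
Cdk1, chr10:69352933-69353162, minus strand: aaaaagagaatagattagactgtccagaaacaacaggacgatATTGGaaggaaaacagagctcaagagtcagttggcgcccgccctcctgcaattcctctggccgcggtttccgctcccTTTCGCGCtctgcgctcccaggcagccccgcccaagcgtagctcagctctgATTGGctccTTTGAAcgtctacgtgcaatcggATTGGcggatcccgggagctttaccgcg
Mcm5, chr8:75109259-75109488, plus strand: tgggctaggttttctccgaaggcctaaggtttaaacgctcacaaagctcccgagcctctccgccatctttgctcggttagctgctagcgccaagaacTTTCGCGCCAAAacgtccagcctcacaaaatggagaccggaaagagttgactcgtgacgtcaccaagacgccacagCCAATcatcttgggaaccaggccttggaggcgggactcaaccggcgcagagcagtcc
Mcm6, chr1:128359726-128359955, minus strand: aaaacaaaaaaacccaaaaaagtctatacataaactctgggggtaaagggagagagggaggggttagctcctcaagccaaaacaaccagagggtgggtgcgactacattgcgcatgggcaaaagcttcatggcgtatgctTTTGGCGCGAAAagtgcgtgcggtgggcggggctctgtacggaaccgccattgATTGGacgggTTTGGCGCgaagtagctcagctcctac

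By GENCODE M21 on GRCm38 these are protein-coding genes. Ube2c (ENSMUSG00000001403) spans 164769898 to 164778822 of chromosome 2, Cdk1 (ENSMUSG00000019942) 69335146 to 69352938 of chromosome 10, Mcm5 (ENSMUSG00000005410) 75109569 to 75128439 of chromosome 8 and Mcm6 (ENSMUSG00000026355) 128331590 to 128359664 of chromosome 1, so the printed windows of Ube2c and Cdk1 reach a few bases into the GENCODE gene. Motif matches on opposite strands can overlap, and they do in Ube2c (CCAATTGG), Mcm5 (TTTCGCGCCAAA) and Mcm6 (TTTGGCGCGAAA). In Ube2c the CHR match starts 29 bases before the start site and 6 CCAAT matches lie upstream of it. In the 250 bases before the start, the CHR letters were found in 7 of the 20 G2/M members with a promoter entry and in 2 of the 14 S members, against 15.99% of all 32851 promoters. CCAAT was found in 17 of 20 G2/M and 10 of 14 S members, against 33.8% of all promoters. The E2F letters were found in 1 of 20 G2/M members (Cdk1) and in 5 of 14 S members (Cdc6, Mcm5, Mcm6, Mcm7 and Uhrf1), against 1.86% of all. A member was counted if any of its promoter entries matched, whereas the background is the share of single entries. The shares are thus not in like units, and a member with several entries had more chances to match. Such a match is a description of letters, not a shown binding site. Ccna2, Aurkb, Tpx2, Mcm4, Gins2, Gmnn and Ccne2 had no entry in the promoter table.

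Plates held 23893272 to 46490618 counts in all, and single cells 202711 to 2312044 counts with plate medians of 321534 to 678124. A member was called on in a cell at 5 or more counts and at 10 or more CPM (counts per 1000000 counts of that cell). The 4 plates share well names (41 of 92 names occur in all plates), so a cell is named here by plate and well. The 4 plates are the only replicates, which measure the spread between plates and not between animals. Blood and tuft cell markers were low throughout. The 3 blood markers summed to at most 3.38 CPM, and the 5 tuft markers to at most 14.4 CPM, in any class of any plate.

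Most reporter cells had few or none of the members on. Of 290 cells, 88 had none of the 41 members on, 194 had no G2/M member on and 117 had no S member on. Cells were called cycle-gene-high when at least 6 of the 23 G2/M members or at least 6 of the 18 S members were on. This was the case in 10 of 290 cells, a share of 3.45% (exact Clopper-Pearson 95% interval 1.67 to 6.25, which covers counting error only). Of these, 7 passed both limits, 1 passed the G2/M limit alone and 2 passed the S limit alone. Among the other 280 cells, 262 had 0 or 1 G2/M member on and 264 had 0 to 2 S members on.

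The high cells had higher scores than the rest, with no wide gap at the limit. The score of a cell, its mean log2(CPM + 1) over the 41 members, was 1.47 to 4.86 in the 10 cells and at most 1.19 in the other 280. The lowest scores of the 10 were 1.47, 1.87 and 2.37. The score chose no cell, but it is made from the same counts, so the separation was largely set by how the cells were chosen. Just inside the limit were well A07 of plate 3, with 6 G2/M and 4 S members on, and well A09 of plate 3, with 2 and 7. Just outside were well E10 of plate 1, with 5 and 0, and well D07 of plate 4, with 1 and 5. A limit of 4 members gave 18 cells and a limit of 9 gave 8. The G2/M and S scores were correlated over all cells (Pearson r = 0.65, 290 cells that share plates and depth). In the other 280 cells r was 0.09. The 10 cells left out were chosen for having many members on, which by itself lowers r in the rest. The lower r therefore cannot show whether the other cells lack the relation.

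The G2/M genes were the more tightly held by these cells. Summing CPM over cells, the 10 cells held a median of 67.3% of a G2/M member's total (range 27.4 to 95.8%), and over 50% of it for 15 of the 23. For S members the median was 39.6% (6.13 to 95.5%), and 6 of 18 were over 50%. These shares describe genes that also chose the cells, and they carry no test. Bub1, a kinase of the spindle checkpoint, had 95.8% of its CPM in the 10 cells, and Cdk1, the kinase that drives mitosis, 95.3%. Kif23, a motor of the dividing cell's midzone, had 91.9%, and Aurkb, the chromosomal passenger kinase, 91.0%. Among S members Mcm5, a subunit of the replicative helicase, had 95.5% and Gins2, a partner of that helicase, 93.8%. Bub1, Cenpf, Kif23, Mcm5 and Gins2 were on in none of the other 280 cells.

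At the other end were genes that many other cells carried too. Mcm7, another helicase subunit, had 6.13% of its CPM in the 10 cells and was on in 54 other cells. Pcna, the sliding clamp, had 18.9% and was on in 65 other cells. Rrm1, the large subunit of ribonucleotide reductase, had 12.1% and was on in 29, whereas its partner Rrm2 had 73.1% and was on in 4. Ube2c, the ubiquitin-conjugating enzyme of mitotic exit, was on in 30 other cells, yet its highest level among them was 573 CPM against 3219 CPM in the highest of the 10. Birc5, encoding survivin, had at least 1 count in 140 cells but was on in 18, so single counts of a member said little about a cell.

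**Figure D1:**
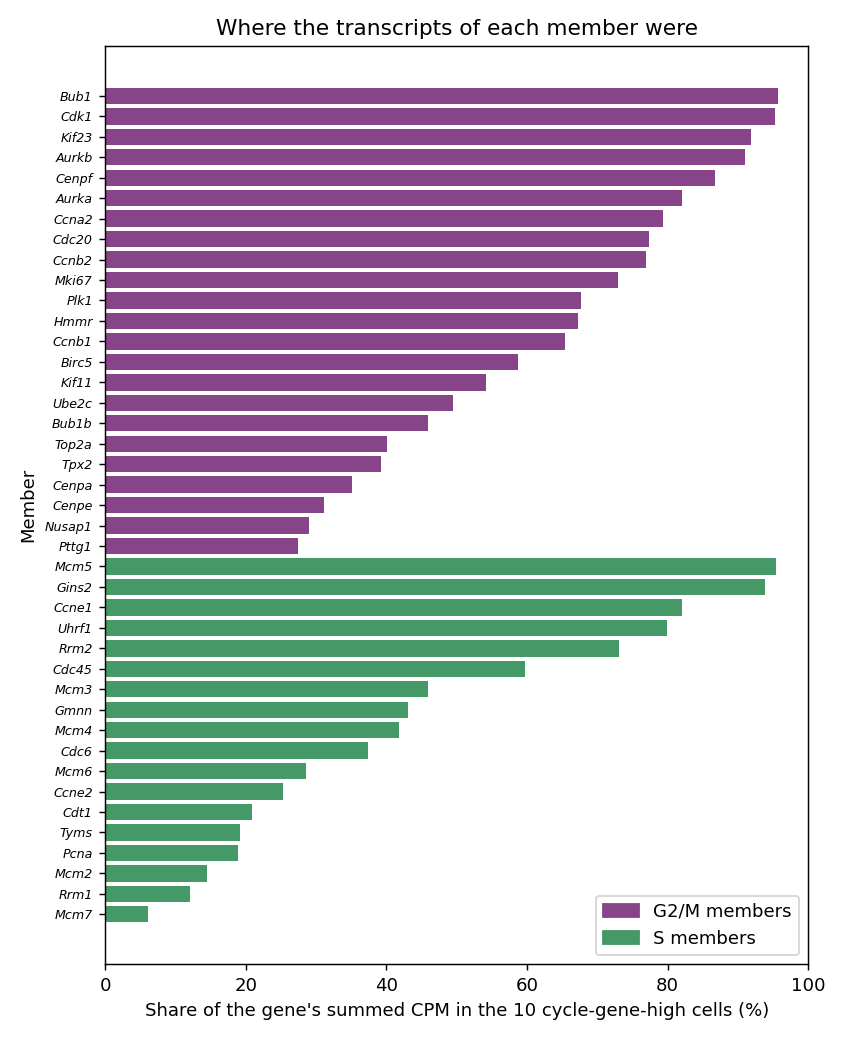
Share of each member's summed CPM (x axis, %) that lay in the 10 cycle-gene-high cells, with G2/M members in purple and S members in green (y axis, genes in order of share). Shares run from 27.4 to 95.8% for G2/M members and from 6.13 to 95.5% for S members.

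The 10 cells differed in which phase they showed. Well C07 of plate 3 had 21 of 23 G2/M members on and 7 S members, with 3800 counts of Ube2c, 1046 of Birc5, 1027 of Pttg1 (securin), 703 of Cdk1 and 386 of Ccnb1 (cyclin B1). It had 0 counts of Pcna, Rrm2 and Uhrf1. Well B12 of plate 4 was the reverse, with 12 S members and 1 G2/M member on. It held 391 counts of Mcm6, 388 of Mcm4, 362 of Mcm5, 313 of Cdc6 (which loads the helicase) and 268 of Rrm2, but 0 counts of Cdk1, Ube2c, Ccnb1 and Cdc20. Well G08 of plate 1 had 16 S members on and was the only one of the 10 with Ccne2 (168 counts), beside 92 counts of Ccne1. Both encode cyclin E, which acts at the entry into S phase.

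The members differed in how many of the 10 cells carried them. Tyms, encoding thymidylate synthase, was on in all 10, and Mcm7, Rrm1, Mcm2, Ube2c, Birc5 and Ccna2 (cyclin A2) in 8 each. Mki67, the proliferation marker, was on in 7 (1 to 820 counts in 9 of the 10 cells and 0 in well G03 of plate 3). Top2a, a topoisomerase needed to separate chromosomes, and Cdk1 were on in 6. Ccnb1, Cdc20, the activator of the anaphase-promoting complex, and Plk1, a mitotic kinase, were on in 4 each. Ccnb2 was on in 3 cells, Aurka in 3 and Cdc6 in 1.

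**Figure D2:**
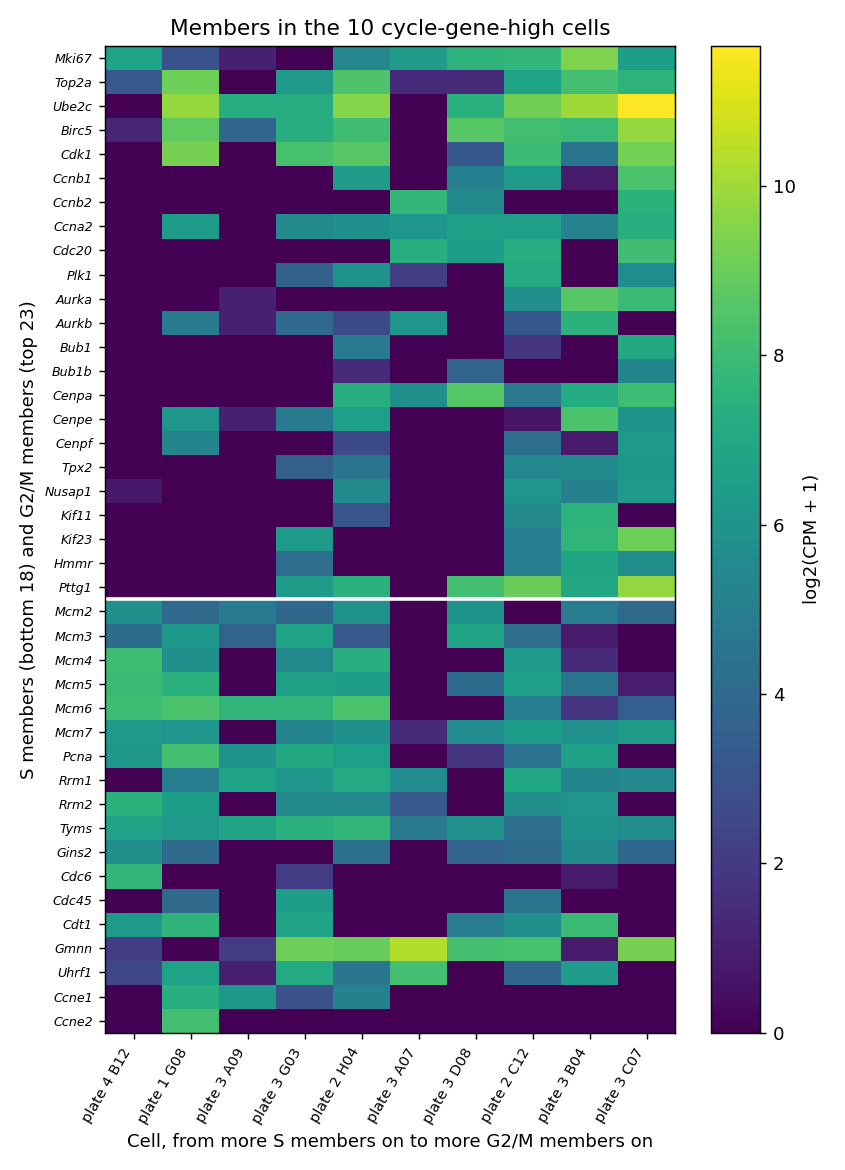
Level of each member (rows, S members in the bottom 18 and G2/M members in the top 23) in the 10 cycle-gene-high cells (columns, by plate and well), coloured as log2(CPM + 1). Columns run from cells with more S than G2/M members on, at the left, to well C07 of plate 3 with 21 G2/M and 7 S members on, at the right.

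The 10 cells were also deeply sequenced. Their median was 1206520 counts and 8127.5 genes, against 416354 counts and 4575 genes in the other 280 cells, and 9 of the 10 ranked 1 to 6 by depth in their plate (well A07 of plate 3 ranked 21). When every cell was thinned to 100000 counts, and a member was then called on at 1 or more counts, 11 cells were high, namely all of the 10 and well D07 of plate 4. No doublet caller was run, and whether a well held more than 1 cell was not tested.

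Cycle-gene-high cells were few among Neurog3-positive and among Neurog3-zero cells. Neurog3 was at 5 or more counts in 50 cells, at 1 to 4 counts in 45 and at 0 in 195. Of the 50 Neurog3-positive cells 1 was cycle-gene-high (2.0%, exact 95% interval 0.0506 to 10.6), as were 4 of the 195 cells without Neurog3 (2.05%, 0.562 to 5.17). These intervals overlap almost wholly. Single members were on more often: Mcm7 in 11 of the 50 positive and 39 of the 195 zero cells, and Pcna in 8 and 52. The positive cell was well C07 of plate 3, with 71 Neurog3 counts, which ranked 14 among the 72 cells of its plate. It also held 25 counts of Dll1 (the Notch ligand of committed progenitors), 235 of Insm1 and 428 of Hes6, both factors of endocrine progenitors, and 170 CPM of Chgb. Insm1 and Hes6 ranked 32 and 38 in the plate. The whole list of 16 endocrine progenitor genes summed to 773 CPM in this well and ranked 67 of 72, with 1 count each of Neurod1 and Pax4 and 0 of Rfx6 and Nkx2-2. The other 9 cells had 0 to 3 Neurog3 counts.

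Among cells with 1 to 4 Neurog3 counts, 5 of 45 were cycle-gene-high (11.1%, 3.71 to 24.1). These counts were low, with 32 wells at 1 count, 10 at 2 and 3 at 3. After thinning, 13 of the 45 wells still had a Neurog3 count, and none of the 5 cycle-gene-high wells among them did. Such wells were about equally frequent at all Chgb levels, at 17 of 96 cells in the lower, 15 of 97 in the middle and 13 of 97 in the upper Chgb tertile. The 5 cells had 591363 to 2312044 counts, so their 1 to 3 counts came to at most 2.03 CPM. With 4 plates, an exact paired permutation test of a share cannot reach the two-sided threshold of 0.05, so the shares were not tested.

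Across plates, no member passed the test between Neurog3-positive and Neurog3-zero cells. Counts were summed per plate and class and compared with edgeR's quasi-likelihood test blocked by plate, and p-values were adjusted by Benjamini and Hochberg's method over all genes. Of the 19 members that passed the filter on low counts, 0 were called, and 1 (Cenpe, a kinetochore motor) had an unadjusted p under 0.05. The background was 0.0167% of 11958 genes called, which is 2 genes, the hormone genes Gcg and Cck, both lower in Neurog3-positive cells, and 748 genes had an unadjusted p under 0.05. Fitted changes were below 0 for 16 of the 19 members, with a median log2 fold change of -1.45 against -0.49 for all genes tested. The remaining 22 members were too low to be tested.

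Single members varied widely between plates. Mki67 was at 0, 0, 10.9 and 0.478 CPM in the Neurog3-positive cells of plates 1 to 4 and at 2.65, 0.118, 59.1 and 4.72 CPM in the Neurog3-zero cells, lower in all 4 plates. Its fitted log2 fold change was -3.40 ± 1.53 (SE, 4 plates, edgeR adjusted p = 0.803). Ube2c was at 0, 17.6, 401 and 0.239 CPM in positive cells and at 29.6, 29.0, 104 and 20.0 CPM in zero cells. Its high value in plate 3 came from well C07, which held 3800 of the 4090 Ube2c counts of all positive cells. Ube2c was thus higher in positive cells in plate 3 and lower in the other plates, with a fitted log2 fold change of -2.53 ± 1.98 (edgeR adjusted p = 0.887). Mcm6 was at 0, 0, 1.20 and 0 CPM in positive cells and 42.5, 5.13, 0.721 and 14.6 CPM in zero cells, again with plate 3 apart, and its fitted log2 fold change was -7.03 ± 3.10 (edgeR adjusted p = 0.803). DESeq2, as an alternative, called 2 members lower in positive cells, Pttg1 and Mcm6, where its background of genes called lower was 5.1%.

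The sign of the Neurog3 comparison depended on the wells with few counts and on the block. Without the plate as a block, 11 of the 19 members had a fitted change above 0, with a median log2 fold change of 0.13 against 0.02 for all genes, and 0 were called. With cells counted as positive from 1 count, the median log2 fold change of the members tested was 1.59, with 27 of 32 above 0 and 0 called by edgeR. That setting puts the 5 cycle-gene-high wells with 1 to 3 Neurog3 counts on the positive side. Without the 10 cycle-gene-high cells, an alternative added after seeing the data, 13 members could be tested, 0 were called and the median was -1.24 against -0.51 for all genes.

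Most of the high cells had under 1000 CPM of Chgb, but they were not most frequent in the lower tertile. Of the 127 cells under 1000 CPM of Chgb, 7 were cycle-gene-high (5.51%, exact 95% interval 2.24 to 11.0), against 3 of 163 above it (1.84%, 0.381 to 5.28), and these intervals overlap. With the limit of 4 members, 9 of 127 cells under 1000 CPM and 9 of 163 above it were high. By Chgb tertile within plates, 3 of 96 cells in the lower, 6 of 97 in the middle and 1 of 97 in the upper were cycle-gene-high. The 7 cycle-gene-high cells under 1000 CPM had 154 to 645 CPM of Chgb. The other 3 had 10336 (well A07, plate 3), 14664 (well B12, plate 4) and 22851 CPM (well D08, plate 3). Above 22851 CPM there were 104 cells, with a highest score of 1.03. That level was read off the highest of the 10 cells, so it fixes that none of the 104 is cycle-gene-high.

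**Figure D3:**
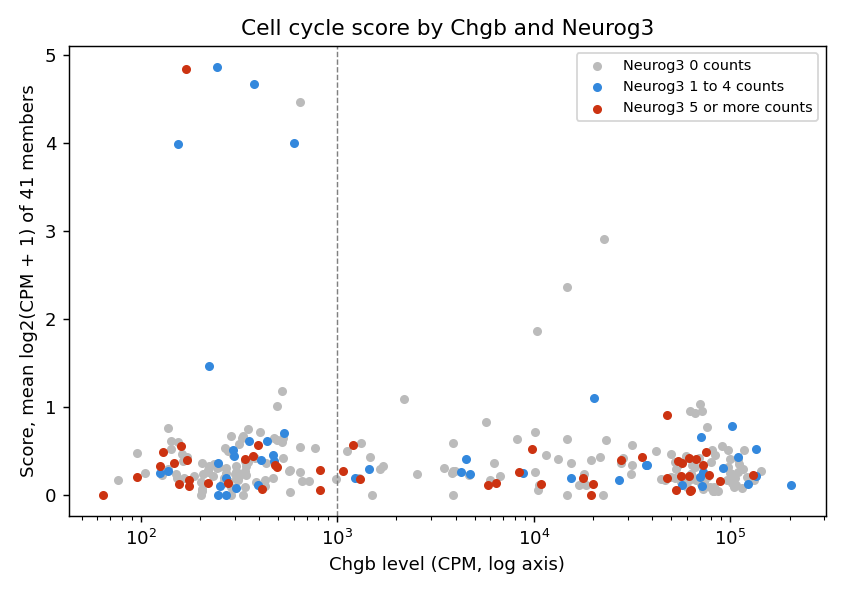
Score of each of 290 cells (y axis, mean log2(CPM + 1) of the 41 members) against its Chgb level (x axis, CPM, log axis), coloured by Neurog3 counts, with a dashed line at 1000 CPM. Scores of 1.47 or more belong to the 10 cycle-gene-high cells, 7 of them left of the line, and none lies above 22851 CPM.

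The 3 high cells with more Chgb carried some endocrine and some stem cell genes together. Well D08 of plate 3 had 28166 counts of Chgb, 1447 of Tac1 (the tachykinin precursor), 439 of Slc18a1 (a vesicular amine transporter), 851 of Fev and 264 of Rfx6 (endocrine transcription factors), with 236 of Ascl2 (a crypt stem cell factor), the highest Ascl2 level of its plate. It had 228 counts of Mki67 and 493 of Birc5. Well A07 of plate 3 had 839 counts of Tac1 and 153 of Tph1 (the enzyme of serotonin synthesis), and the plate's highest level of Slc12a2, an ion transporter of crypt cells, at 1339 counts. It held 49 counts of Mki67, 125 of Ccnb2, 96 of Cdc20 and 744 of Gmnn (geminin, which blocks a further round of replication). Well B12 of plate 4 had 813 counts of Tac1, 475 of Tph1 and 1260 of Smoc2, a stem cell gene, with 161 counts of Mki67. Summed enterochromaffin markers were 12072 to 25176 CPM in these 3 cells, under the 64547 to 112845 CPM that the upper Chgb tertile had in sum per plate. Those sums ranked 20 and 27 of 72 in wells D08 and A07 and 34 of 63 in well B12. Stem and transit-amplifying sums ranked 14, 2 and 2 in turn. The endocrine progenitor sums were low, at ranks 51 and 71 of 72 and 63 of 63. Other listed genes were near 0, with 1 count of Slc18a1 and 0 of Neurod1 and Ascl2 in well A07, and 7 of Lgr5 in well D08.

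The 7 high cells with little Chgb were not of 1 kind. Wells G08 of plate 1 and B04 of plate 3 held Paneth cell genes, with 9561 and 17073 counts of Lyz1 (lysozyme), 20202 and 54661 of Defa24 (a defensin, whose family members can share reads) and 16874 and 19374 of Itln1. Their Lyz1 level was the highest of their plate. Well A09 of plate 3 held goblet cell genes, with 30921 counts of Tff3, 9294 of Fcgbp and 6115 of Spink4. The marker lists were mixed in these wells. Well G08 also had 14002 CPM of Tff3 and 17334.5 CPM of Spink4, and its goblet sum of 33884 CPM ranked 8 in its plate. The goblet sum of well B04 ranked 17. In well A09 the Paneth sum was 5424 CPM and ranked 7, with 4000 CPM of Itln1 and 92.3 CPM of Lyz1. Wells C12 and H04 of plate 2 and C07 and G03 of plate 3 had 2.09 to 374 CPM of Lyz1, against 16168 CPM in well G08 and 13847 CPM in well B04, and 412 to 4895 CPM of Tff3, against 31361 CPM in well A09. Atoh1, a factor of secretory progenitors, had 0 counts in all 10 cells and was rarely seen elsewhere, with 1 count in the other 66 cells of plate 3.

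Members were mostly lower where Chgb was high, without passing the test. Cells were divided by Chgb CPM within each plate, and sums of the upper tertile (21 to 28 cells a plate) were compared with sums of the lower tertile (21 to 27 cells). Of 21 members tested, 0 were called by edgeR's quasi-likelihood test, 5 had an unadjusted p under 0.05 and 18 had a fitted change below 0. Their median log2 fold change was -1.33, against 0.09 for all genes tested. The background was 3.66% of 11735 genes called, which is 430 genes, 174 higher and 256 lower in the upper tertile, and 2331 had an unadjusted p under 0.05. Left-out plates moved that count, to 26, 7 and 23 genes without duodenum replicate 1, 2 or 3 and to 225 without jejunum replicate 1, with 0 members called each time. Of all 41 members, 6 were lower in the upper tertile in all 4 plates and 0 were higher in all 4, and for 0 members did all 4 upper values lie below all 4 lower values. The same counts over all genes are not given here, so whether the members differ from other genes in this cannot be judged.

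Ube2c had the smallest p of the members. It was at 31.4, 204, 77.8 and 50.4 CPM in the lower tertile of plates 1 to 4 and at 0.683, 19.5, 44.1 and 4.14 CPM in the upper. It was thus lower in the upper tertile of every plate, by a log2 fold change of -3.65 ± 0.79 (SE, 4 plates, edgeR adjusted p = 0.0674). Cdk1 was at 3.80, 72.7, 53.8 and 0 CPM in the lower and 0.114, 0.0715, 1.05 and 0 CPM in the upper tertile. The jejunum plate had no Cdk1 count in either tertile, and the fitted log2 fold change was -6.86 ± 1.55 (edgeR adjusted p = 0.0899). Cycle-gene-high wells carried most of these Cdk1 counts. Wells C12 and H04 of plate 2 and G03 of plate 3 held 485, 465 and 716 of the 1698 in the lower tertile. Well D08 of plate 3 held 10 of the 14 in the upper tertile. The same 3 lower-tertile wells held 1077, 878 and 344 of the 4600 Ube2c counts there. Pcna, which many cells outside the 10 carried, was at 20.3, 19.8, 26.6 and 16.5 CPM in the lower and 8.54, 18.2, 5.52 and 13.1 CPM in the upper tertile. It was lower in all 4 plates, at -1.33 ± 0.87, without passing the test (edgeR adjusted p = 0.446).

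The other S members were mixed. Mcm7 was at 17.7, 53.1, 30.2 and 62.5 CPM in the lower and 0.456, 25.6, 12.5 and 14.9 CPM in the upper tertile (log2 fold change -2.57 ± 0.89, edgeR adjusted p = 0.190). Rrm1, Mcm3 and Cdt1 were also lower in all 4 plates, with edgeR adjusted p-values of 0.185, 0.197 and 0.351. Cdc6, too low to be tested, was at 2.50 and 14.5 CPM in the upper and 0 and 0.525 CPM in the lower tertile of plates 2 and 3, and at 0 in both tertiles of plates 1 and 4. Mcm6 was higher in the upper tertile in plates 1 and 4 and lower in plates 2 and 3, at -0.52 ± 1.86 (edgeR adjusted p = 0.912). Mki67 was at 4.78, 0.143, 37.9 and 0.0537 CPM in the upper and 0, 34.1, 0.0750 and 0.235 CPM in the lower tertile, so that plates 1 and 3 went against plates 2 and 4, and it was too low to be tested.

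**Figure D4:**
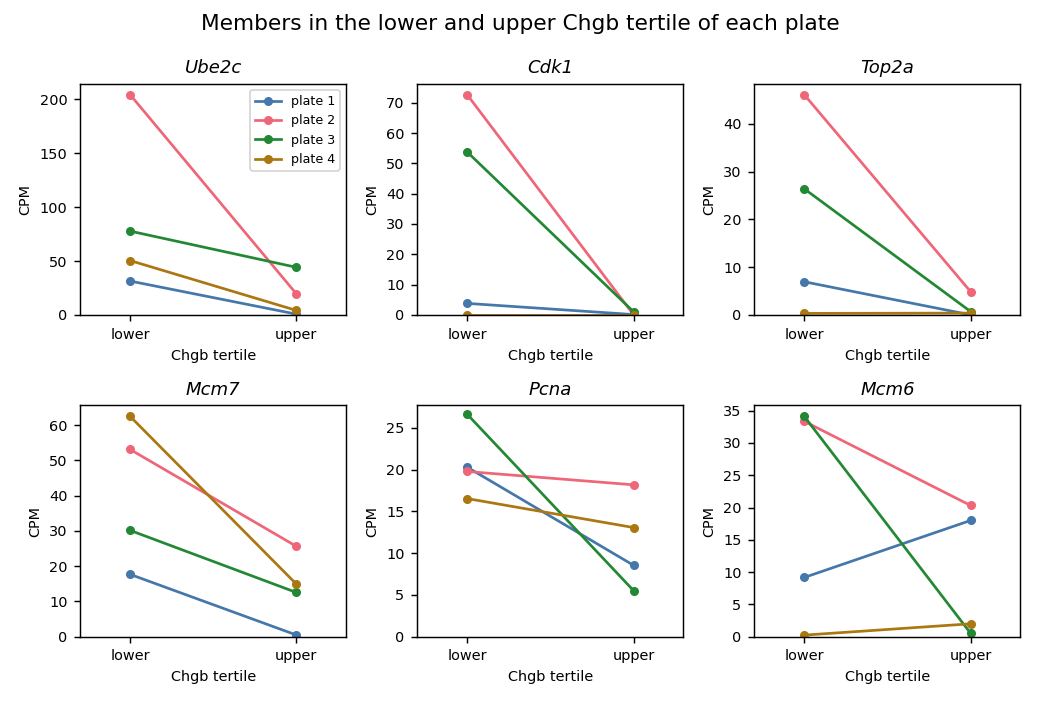
CPM of 6 members (y axes, from 0, with a different range in each panel) in the summed cells of the lower and upper Chgb tertile (x axes), with 1 line for each plate. Ube2c, Mcm7 and Pcna fall in all 4 plates, Cdk1 is at 0 in both tertiles of plate 4, and Mcm6 rises in plates 1 and 4.

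The call on these genes depended on the method and on the limit. DESeq2 called 7 members lower in the upper tertile (Ube2c, Cdk1, Rrm1, Top2a, Mcm7, Cdt1 and Mcm3), where 9.67% of genes were called lower. With a fixed limit of 1000 CPM in place of tertiles, edgeR called 2 of 31 members lower above it, Ube2c (log2 fold change -4.54) and Cdk1 (-7.82), where 2.63% of genes were called lower. Without the 10 cycle-gene-high cells, 14 members could be tested, 8 with a fitted change below 0 and 6 above, 0 were called, and the median log2 fold change was -0.31 against 0.12 for all genes.

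Other gene lists moved with Chgb in the same comparison. All 8 enterochromaffin markers tested rose in the upper tertile (Chgb itself was not tested), among them Tph1 (log2 fold change 7.74 ± 0.29, edgeR adjusted p = 0.000928). Of 6 goblet markers tested 5 fell, with Tff3 at -5.24 ± 0.24 (edgeR adjusted p = 0.00109), as did 1 of 6 Paneth markers, Ang4. Summed goblet markers were 18494 to 26941 CPM in the lower and 529 to 1131 CPM in the upper tertile, and summed Paneth markers 3738 to 9850 against 233 to 1105 CPM, so the tertiles differed in cell type markers as well as in Chgb. Of 4 stroma markers 1 could be tested, Vim (vimentin), which rose by 7.32 ± 0.48 (edgeR adjusted p = 0.0034). Summed stroma markers were 2.23 to 32.4 CPM in the lower and 577 to 3020 CPM in the upper tertile, where Pdgfra was at 0. Of 2 enterocyte markers tested, 1 fell. Summed enterocyte markers overlapped, at 766 to 1756 CPM in the lower and 276 to 985 CPM in the upper tertile. Of 10 peptide hormone and 10 stem and transit-amplifying genes tested, 0 were called. The part of these cell types in the members' values was not tested. Median depth was 388087 counts in the lower and 464019 in the upper tertile.

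Few regulators of G1 and of cell cycle exit passed the test. Of 20 such genes, a list that holds the D cyclins and their kinases as well as inhibitors, 1 rose in the upper Chgb tertile, Cdkn1b (the inhibitor p27), by 1.62 ± 0.30 (edgeR adjusted p = 0.0394), and 0 fell. Of the endocrine progenitor list Fev rose, by 2.96 ± 0.39 (edgeR adjusted p = 0.0159), and Hes6 fell by 1.90 on the log2 scale (edgeR adjusted p = 0.0276). Of cell cycle genes outside the members, 0 of 19 G2/M genes and 0 of 21 S phase genes were called, with 3.66% of all genes as the background.

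Plate 3 held most of the cycle-gene-high cells. Plates 1 to 4 had 1 of 72, 2 of 83, 6 of 72 and 1 of 63 such cells. The share was 1.39% (exact 95% interval 0.0352 to 7.50), 2.41% (0.293 to 8.43), 8.33% (3.12 to 17.3) and 1.59% (0.0402 to 8.53) in turn, and the interval of plate 3 overlaps each of the others. Plates 2 and 3, with 2 and 6 such cells, are both duodenum at 12 weeks.

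Over whole plates, 21 of the 23 G2/M members were highest in plate 3, all but Plk1 and Tpx2, which were highest in plate 2. The same count over all genes is not given here, so whether the members differ from other genes in this cannot be judged. Single wells weighed on these sums, as well C07 held 3800 of the 6894 Ube2c counts and 156 of the 158 Bub1 counts of plate 3. Outside the cycle-gene-high cells, the G2/M members summed to 87.4, 64.4, 114 and 94.4 CPM in plates 1 to 4. The S members had no such common plate, with 5, 3, 8 and 2 of the 18 highest in plates 1 to 4. Mki67 was at 1.93, 11.8, 37.7 and 3.59 CPM in plates 1 to 4, and Ube2c at 45.6, 78.5, 183 and 19.1 CPM. Cdk1 was at 16.4, 24.9, 38.8 and 0 CPM, where plate 4 had 0 counts of 46490618. Pcna was at 23.7, 15.3, 17.1 and 14.6 CPM, and Mcm7 at 28.6, 34.5, 22.5 and 31.1 CPM. Several members had no count at all in a plate: Gmnn, Ccnb1, Ccnb2, Bub1 and Cdc6 in plate 1, Ccnb2 in plate 2, Ccne2 in plate 3, and Cdk1, Plk1, Aurkb, Bub1 and Hmmr in plate 4. Gmnn was at 41.3, 105 and 38.3 CPM in plates 2, 3 and 4 and was on in 18 cells there, so its 0 in plate 1 stands apart from Top2a (21.6 CPM) and Mcm6 (44.1 CPM) of the same plate.

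No member passed the test between jejunum and duodenum. All 41 members were tested on plate sums with edgeR's quasi-likelihood test, 0 were called, 6 had an unadjusted p under 0.05, and 32 had a fitted change below 0 in jejunum, with a median log2 fold change of -1.29 against -0.27 for all genes. The background was 0.0% of 19329 genes, and 819 had an unadjusted p under 0.05. Cdk1 had the smallest p of the members (edgeR adjusted p = 0.902). DESeq2 called 7 members lower in jejunum (Cdk1, Ccna2, Cdc20, Plk1, Hmmr, Kif23 and Aurkb), where 3.98% of genes were called lower. In such sums, fewer cycling cells and less RNA per cell cannot be told apart. The 7 genes that DESeq2 called had 67.3 to 95.3% of their summed CPM in the 10 cycle-gene-high cells. Only 1 of those cells was jejunum, well B12, with 1 G2/M member on. The tissue comparison was not run without them. With 1 jejunum plate, tissue, animal and plate cannot be told apart, and the 39-week plate is likewise a single plate.

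Many cell cycle genes outside the members were higher in the cycle-gene-high cells, though not to the same extent in each plate. Plate 3, with 6 high and 66 other cells, was the only plate with more than 2 high cells, so sums were set side by side with no test. Of 50 further cell cycle genes at 5 CPM or more over all cells of the plate, 39 were at least 2-fold higher in the high cells (21 of 25 G2/M genes and 18 of 25 S phase genes) and 2 were at least 2-fold lower, Prc1 and Wdr76. The background in plate 3 was 14.9% of 10075 genes higher by that much and 40.5% lower. In the high cells Cdca8, a partner of Aurkb, reached 117 CPM (109 to 125, an exact Poisson 95% interval), against 0.265 CPM in the others, and Hmgb2, a chromatin protein, at 382 (368 to 396) and 16.4 CPM. Tk1, thymidine kinase, was at 168 (159 to 177) and 8.72 CPM.

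The other plates, with 1 or 2 high cells each, were less uniform. In plate 2, 17 of 20 further G2/M genes and 14 of 22 S phase genes were at least 2-fold higher in the high cells, and 2 and 5 were lower, where 13.0% of all genes were higher and 60.3% lower. In plate 1, 7 of 13 G2/M genes were higher and 3 lower, and of 24 S phase genes 10 were higher and 10 lower (9.41% and 62.2% of all genes). In plate 4, whose high cell is well B12 with 1 G2/M member on, 5 of 17 G2/M genes were higher and 10 lower, against 14 higher and 5 lower of 20 S phase genes (15.2% and 64.4% of all genes).

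A few genes were higher in every plate. Over all plates, 0.436% of 7792 genes outside the members were at least 2-fold higher in the high cells each time, and 3 of the listed genes were among them: Hmgb2, Dut (which keeps uracil out of DNA) and Lig1 (DNA ligase 1). Hmgb2 was at 538, 320, 382 and 292 CPM in the high cells of plates 1 to 4 and at 30.6, 27.3, 16.4 and 10.3 CPM in the others. In plates 1 and 4 these sums are each 1 cell.

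Endocrine genes were lower in the high cells, and crypt genes were mixed. The 16 endocrine progenitor genes summed to 115, 466, 919 and 604 CPM in the high cells of plates 1 to 4 and to 2735, 3293, 2884 and 3279 CPM in the others, with no overlap. Lowering was common in these cells, as 62.2, 60.3, 40.5 and 64.4% of all genes were at least 2-fold lower in plates 1 to 4. In plate 3, 13 of 15 of them were at least 2-fold lower, among them Neurod1 (8.76 against 144 CPM) and Nkx2-2 (14.5 against 276 CPM), while Hes6 was nearly level at 436 and 480 CPM. All 9 enterochromaffin and all 10 peptide hormone genes compared were at least 2-fold lower there. Of 9 stem and transit-amplifying genes, 7 were at least 2-fold higher in plate 3, where 14.9% of all genes were. Ascl2 was at 69.8 against 0.133 CPM and Lgr5, the stem cell receptor, at 78.8 against 14.7 CPM. Summed over plates, that list ran from 174 to 2612 CPM in the high cells and from 466 to 957 CPM in the others, so it overlapped.

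D cyclins were higher and several inhibitors lower in the summed high cells of plate 3, where 14.9% of all genes were at least 2-fold higher and 40.5% lower. Ccnd1, Ccnd2 and Ccnd3, which start the cycle in G1, were at 44.4, 520 and 49.9 CPM in the high cells and at 4.38, 131 and 7.39 CPM in the others. These sums rest on few wells. Ccnd3 had 284 counts in well G03, 90 in well A09 and 0 or 1 in the other high wells of the plate. Ccnd2 ran from 43.2 CPM (well C07) to 1790 CPM (well A09), and Ccnd1 from 0.847 CPM (well C07) to 236 CPM (well A07). The inhibitors Cdkn1a, Cdkn1b, Cdkn1c and Cdkn2d were at 79.1, 43.9, 8.49 and 12.2 CPM against 372, 116, 127 and 84.4 CPM, while Cdkn2b and Cdkn2c differed by less than 2-fold. The whole list of 20 G1 and exit regulators summed to 964 to 1910 CPM in the high cells and 2224 to 3647 CPM in the others. At least 2-fold lower were 61.1, 58.8, 50.0 and 70.6% of its genes compared in plates 1 to 4, near the 62.2, 60.3, 40.5 and 64.4% of all genes.

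The genes whose levels across cells were most like the scores included several known cell cycle genes. Likeness was Pearson's r of plate-centred log2(CPM + 1) with a score over 290 cells, for 11000 genes. It rests on the few high cells. A gene needed a minimum of 10 cells to be compared. Cdca8, on in 7 high and 3 other cells, came to 10 only with the high cells, whereas Cdca3 was on in 10 others. A gene let in by the high cells tends to follow scores that those cells dominate. The ranking is therefore no independent evidence that these genes go with the cell cycle. With the G2/M score likeness was highest for Cdca3 (0.69), Cdca8 (0.66), Mad2l1 (0.65), Pclaf (0.56) and Kcne3 (0.54), followed by Hist1h2ae, Nrm, Gm4739, Smc2 and Cdca5. With the S score it was highest for Kcne3 (0.67), Mad2l1 (0.55), Cdca8 (0.54), Phgdh (0.54) and Pclaf (0.51), followed by Cdca3, Gm9347, Cdca7, Cldn15 and Exosc8. Kcne3, a subunit of potassium channels, was on in 7 of the 10 cells and 3 of the other 280. Neurog3 had an r of -0.05 and -0.09 with the G2/M and S score, and Chgb of -0.10 and -0.11.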

How the data were processed

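The members, lists, classes and tests were chosen with earlier results of these data known. The authors deposited whole-number counts per gene and cell, with no further unit. The submitters' processing notes name bcl2fastq 2.17.1.14, cutadapt 1.10, Bowtie2 2.2.8, STAR 2.5.3a, UMI-tools 0.4.4, HTSeq 0.6.1 and the build mm10, with no role or order. No source used here gives the cell filter or says whether molecular indices were collapsed, so counts may include PCR copies and intervals cover counting error only. Of 368 sorted cells 290 were in the table, and columns were matched to samples by pool number. No further cell filter was used.

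Counts were summed per plate and class and tested with edgeR 4.0.16 (R 4.3.3, limma 3.58.1; quasi-likelihood, TMM, filterByExpr) with Benjamini-Hochberg adjustment over all genes and a threshold of 0.05. The edgeR and DESeq2 steps were tested on simulated data with known changes. That simulation gave all genes the same dispersion and plates no difference but depth. It therefore cannot show how the steps do for members carried by a few wells. DESeq2 1.42.0, other limits, thinning and left-out plates were alternatives. Shares and scores were computed with Python 3.11.15, numpy 2.4.6, pandas 2.3.3 and scipy 1.17.1. Gene positions came from GENCODE M21, promoter sequences from RefSeq (34 of 41 members matched), and Ensembl identifiers were matched to 29120 symbols. The cycle-gene-high cells were too few per plate for a test outside plate 3, so they are described by values. Replicate numbers 1 to 3 name plates and pair no samples between tissues. In the Neurog3 and Chgb comparisons both classes come from the same plates, and the plate was the block. The tissue comparison sets plate 4 against plates 1 to 3, with no block.

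The genes named were members past the threshold, Mki67, Top2a, Ccnb1, Cdc20, Plk1, Cdk1, Ube2c, Birc5, Pcna, Mcm2, Mcm5, Mcm6, Rrm2, Uhrf1, Cdc6, Ccne1 and Ccne2, up to 4 genes per direction of each other list, and the 10 genes most like each score. Other genes, and the wells described, were chosen after their values were seen.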

Additional observations from a re-analysis of the deposited data

Results flagged for a closer look

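In the Chgb comparison, Top2a went one way in the duodenum and the other way in jejunum. On the log2(CPM + 1) scale, the upper minus the lower tertile was 0.0675 in the jejunum plate and -4.01 to -2.99 in the 3 duodenum plates. Top2a was at 0.313 CPM in the lower and 0.376 CPM in the upper tertile of the jejunum plate, so the value there rests on very few counts. The difference between tissues was not tested, and it rests on 1 jejunum plate.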

How the results depend on the processing

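Counts of called genes depended on the tool. For Neurog3, edgeR called 2 genes, against 657 with DESeq2, 0 with positive cells from 1 count, 0 with no replicate block and 0 to 2 with a plate left out, and DESeq2 called 2 members. For Chgb, edgeR called 430 genes, against 2433 with DESeq2, 275 with a split at the plate's median and 7 to 225 with a plate left out, and members called were 7 with DESeq2 and 2 at the limit of 1000 CPM. For jejunum, edgeR called 0 genes, against 731 with DESeq2, 9 without a filter and 0 to 10 with a plate left out, and members called were 7 with DESeq2, 1 without a filter and 0 to 1 with a plate left out (1 without duodenum replicate 2). Other alternatives left counts of members within 1.5 times. Without the block, 0 members were called in the Neurog3 and Chgb comparisons and 367 genes for Chgb. No paired analysis was possible for tissue because duodenum and jejunum share 1 replicate number. The thinned, 4-member and 9-member settings gave 29, 41 and 37 of the further cell cycle genes higher in plate 3, against 39.

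Fitted log2 fold changes of members that were not called changed sign in several settings, and the cause was not tested. In the Neurog3 comparison Top2a ran from -1.21 to 1.96 with a plate left out (-0.56 without duodenum replicate 2), and became -1.41 without the cycle-gene-high cells and -0.14 thinned. Cdc20 ran from -2.92 to 1.07 (0.98 without duodenum replicate 1), Birc5 from -1.26 to 1.10 (0.34 without duodenum replicate 2) and Mcm2 from -2.09 to 0.74 (0.27 without duodenum replicate 3). With no replicate block Cdc20 became 1.44, Ube2c 1.34, Birc5 1.13 and Mcm2 0.29. From 1 count Cdc20 became 1.44, Ube2c 1.39, Birc5 1.69, Pcna 0.64, Mcm6 1.59 and Rrm2 2.39. In the Chgb comparison, with a plate left out, Cdc20 ran from -1.15 to 4.41 (-1.08 without duodenum replicate 1), Birc5 from -1.48 to 1.17 and Mcm6 from -1.81 to 0.73. Cdc20 became -0.90 with no replicate block, -1.35 at 1000 CPM and -0.89 with the median split, where Top2a became 0.11 and Birc5 1.32. Without the cycle-gene-high cells Birc5 became 0.89 and Mcm6 2.98, and thinned Birc5 became 0.25.

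No test was made of the cycle-gene-high cells, so DESeq2, no filter, left-out plates and the block were not run for them. Leaving out the jejunum plate cannot be run for the tissue comparison. With 10 such cells, the depth of the shares is limited by cell number.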
